A study of Mus musculus with 6 samples.

Results

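The enzymes and the chaperone that modify and cross-link collagen were examined in NMuMG cells, an epithelial line from the normal mouse mammary gland, during treatment with transforming growth factor β1 (TGFβ1). The set was chosen by name and holds 10 of the 21240 genes in the count table. It comprises the lysyl hydroxylase genes Plod1 and Plod2, the prolyl 4-hydroxylase α subunit genes P4ha1 and P4ha2, the collagen chaperone gene Serpinh1, and the lysyl oxidase genes Lox, Loxl1, Loxl2, Loxl3 and Loxl4. All cells were kept for 6 h without serum and, by the study's methods, without insulin. They then received vehicle for 2 h (HCl with BSA in the treatment protocol, Tris-HCl with BSA in the sample labels), TGFβ1 at 5 ng/ml for 2 h (TGFβ2h) or TGFβ1 at 5 ng/ml for 12 h (TGFβ12h). Each group had 2 biological replicates, and a strand-specific library of total RNA was sequenced from each, giving 6 libraries. Vehicle was collected at 2 h only, so in the comparisons of TGFβ12h with vehicle and with TGFβ2h the duration of treatment and the longer time without serum and insulin cannot be told apart.

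Fibrillar collagen is modified while it is being made and again after it leaves the cell. In the endoplasmic reticulum, prolyl 4-hydroxylases hydroxylate prolines that stabilize the triple helix, and lysyl hydroxylases hydroxylate lysines that later carry sugars or form cross-links. HSP47, the product of Serpinh1, binds folded procollagen on its way through the secretory pathway. Outside the cell, lysyl oxidases oxidize lysine side chains of collagen and elastin, and the aldehydes formed join neighboring molecules into stable fibers. TGFβ is a well known inducer of extracellular matrix genes during the epithelial-to-mesenchymal transition.

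Total counts per library ranged from 14705886 to 23786993. The labels were checked against Smad7, a textbook TGFβ target gene, whose log2FC against vehicle was 2.07 in TGFβ2h and 2.65 in TGFβ12h. The cell type was checked against epithelial markers, of which Cdh1 (mean 392 CPM in vehicle, where CPM are counts scaled by library size and TMM factor), Krt8, Krt18 and Krt19 were abundant, whereas Epcam had a mean of 0.181 CPM and Cldn3 no count in vehicle. The summed level of the 6 epithelial markers was 5780 and 4960 CPM in vehicle, 6440 and 6470 in TGFβ2h and 10300 and 10400 in TGFβ12h, where Krt8 (log2FC 1.63, adjusted p = 0.000114) and Krt18 (1.52, adjusted p = 0.000275) were higher than in vehicle and Krt19 lower (-1.95, adjusted p = 0.000103). Of the 3 leukocyte markers Cd3e had no count in any library, the mean of Ptprc was at most 0.157 CPM in any group, and Cd68 passed the filter with means of 6.25, 6.01 and 5.07 CPM in vehicle, TGFβ2h and TGFβ12h and was not called. The summed level of the 3 endothelial markers was 0.118 to 0.353 CPM in vehicle and TGFβ2h and 1.74 and 1.95 CPM in TGFβ12h. Nearly all of the TGFβ12h sum was Cdh5 (mean 1.77 CPM), while Pecam1 had a mean of 0.0731 CPM there and Kdr no count. The summed level of 7 mesenchymal markers, mostly Vim, was 1950 and 2110 CPM in vehicle, 2490 and 3170 in TGFβ2h and 3150 and 3450 in TGFβ12h, while Thy1 had no count in any library. The part of these marker changes in the results below was not tested, and in bulk RNA a change in the number of cells of a kind cannot be told apart from a change of RNA per cell.

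Of the 10 genes, 7 reached 2 CPM in no fewer than 2 libraries and were tested (Plod1, Plod2, P4ha1, P4ha2, Serpinh1, Loxl2 and Loxl4), each of them above that level in both vehicle libraries too. The remaining Lox, Loxl1 and Loxl3 were below it. Calls rest on the quasi-likelihood test of edgeR, with a gene called if its Benjamini-Hochberg adjusted p was under 0.05, and taken as strongly changed if its absolute log2FC also exceeded 1. In TGFβ2h, 2 of the 7 tested genes were called higher than in vehicle (Plod2 and Serpinh1) and 0 lower, where 9.91% of all 11080 tested genes were called higher and 5.25% lower. In TGFβ12h, 5 of 7 were called higher (Loxl4, Plod1, Plod2, P4ha2 and Serpinh1) and 0 lower, where 21.8% of all tested genes were called higher and 21.5% lower. From 2 h to 12 h, 3 of 7 were called higher (Plod1, Plod2 and Serpinh1) and 0 lower, against 15.2% and 18.9% of all tested genes. None of the 7 was strongly higher in TGFβ2h (4.23% of all tested genes were), 3 were in TGFβ12h (Plod1, Plod2 and Serpinh1, with 8.03% of all tested genes), and from 2 h to 12 h Plod2 alone was (4.5% of all tested genes). The median log2FC of the 7 genes was 0.25 in TGFβ2h, 0.86 in TGFβ12h and 0.52 from 2 h to 12 h, and that of all tested genes was -0.0091, 0.015 and 0.0092. The 2 comparisons with vehicle share the same vehicle libraries.

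**Figure D1:**
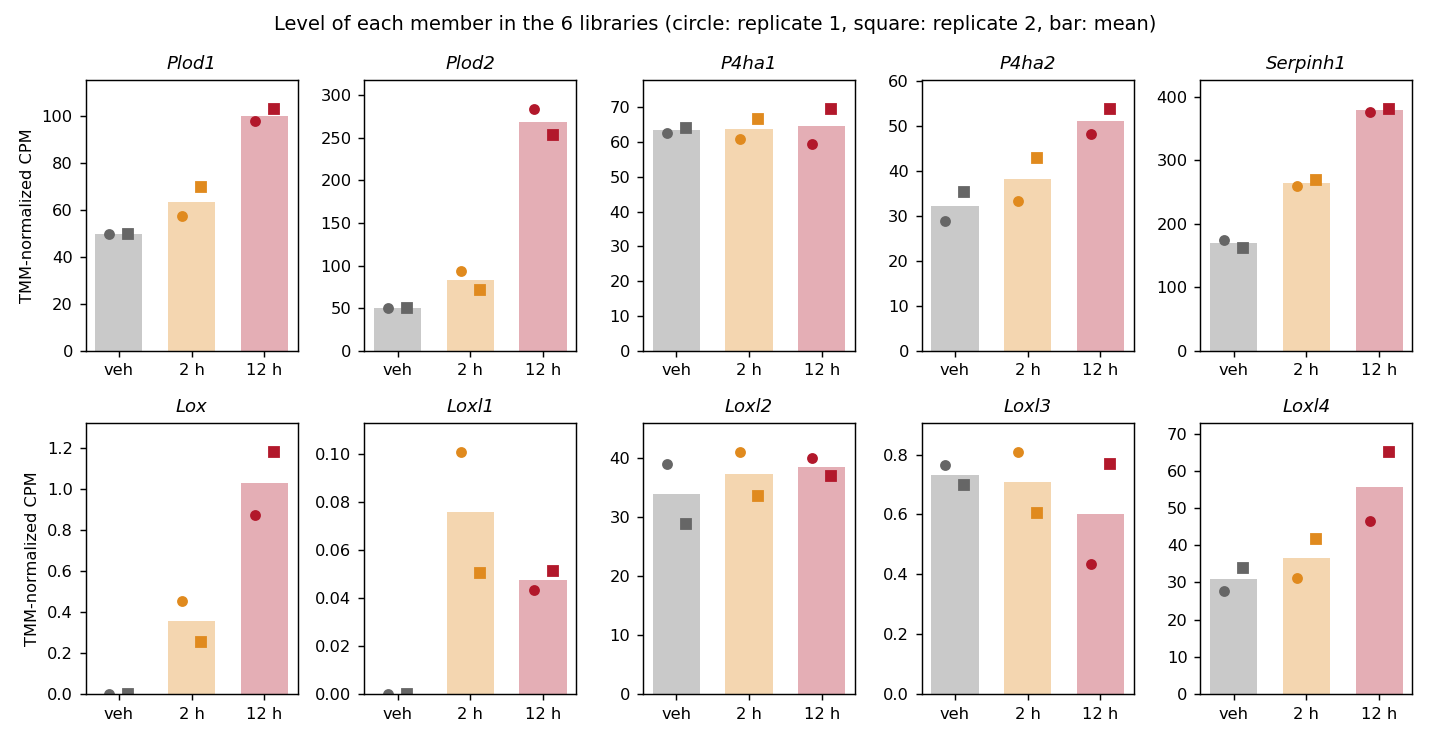
TMM-normalized CPM of the 10 genes (y axis, a separate linear scale for each gene, starting at 0) in the vehicle, TGFβ2h and TGFβ12h libraries (x axis), where circles are replicate 1, squares replicate 2 and bars the mean of 2 libraries. Plod2 rose from about 50.4 CPM in vehicle to 253 and 284 CPM in TGFβ12h, whereas P4ha1 stayed between 59.4 and 69.6 CPM in all libraries and Loxl1 never exceeded 2 counts.

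Plod2, which encodes the lysyl hydroxylase known for hydroxylating the telopeptide lysines of collagen, changed more than any other tested gene of the set. Plod2 (Entrez 26432) lies on the forward strand at chr9:92437061-92503266 of NCBIM37, the assembly also called mm9. Its level was 50.4 and 50.3 CPM in the vehicle libraries, 93.4 and 71.8 CPM in TGFβ2h, and 284 and 253 CPM in TGFβ12h. The groups did not overlap, and most of the change came between 2 h and 12 h. The vehicle libraries were close to each other (mean 50.4 ± 0.0801 CPM, SD, n = 2), and the TGFβ2h libraries were further apart (82.6 ± 15.3 CPM). Relative to vehicle, Plod2 was 1.64-fold higher in TGFβ2h (log2FC 0.71 ± 0.15, SE, adjusted p = 0.0228) and 5.33-fold higher in TGFβ12h (log2FC 2.41 ± 0.15, 95% confidence interval of the fold 4.14 to 6.86, adjusted p = 9.01e-05). It rose 3.25-fold from 2 h to 12 h (log2FC 1.70 ± 0.15, adjusted p = 0.000567). The call in TGFβ2h was lost with vehicle replicate 1 left out (adjusted p = 0.118), vehicle replicate 2 (0.112), either TGFβ12h library (0.0676 each), or when only the 2 groups compared were fitted (0.0694), while the calls at 12 h and from 2 h to 12 h held in all 14 alternative analyses.

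Plod1, the lysyl hydroxylase that acts mainly on the helical part of collagen, was called in TGFβ12h and not in TGFβ2h. Its level (Entrez 18822, reverse strand, chr4:147283862-147310876) was 49.6 and 49.8 CPM in vehicle, 57.3 and 69.8 CPM in TGFβ2h and 97.9 and 103 CPM in TGFβ12h. All TGFβ2h values were above both vehicle values, but the difference in TGFβ2h did not pass the test (log2FC 0.35 ± 0.12, 95% interval 0.062 to 0.65, adjusted p = 0.107). In TGFβ12h Plod1 was 2.02-fold higher than in vehicle (log2FC 1.01 ± 0.12, adjusted p = 0.000946). From 2 h to 12 h its log2FC was 0.66 ± 0.12 (adjusted p = 0.00742). With TGFβ2h replicate 1 left out the 2 h difference was called (adjusted p = 0.0341), and without TGFβ12h replicate 2 the change from 2 h to 12 h was not (0.0587). The 12 h log2FC lay just above the limit of 1 for a strong change and ranged from 0.96 to 1.03 with each library left out in turn, and was 0.89 with total counts without TMM factors, where the median of all tested genes was -0.11.

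Serpinh1 was the most highly expressed gene of the set per exon length in every library, and it rose at both times. HSP47, its product, is a chaperone specific for procollagen. Its level (Entrez 12406, reverse strand, chr7:106493885-106501740) was 175 and 162 CPM in vehicle, 259 and 269 CPM in TGFβ2h, and 376 and 381 CPM in TGFβ12h. The groups were far apart compared with the spread between replicates. Serpinh1 was 1.56-fold higher in TGFβ2h (log2FC 0.64 ± 0.097, SE, adjusted p = 0.00724) and 2.24-fold higher in TGFβ12h (log2FC 1.17 ± 0.098, adjusted p = 0.000228) than in vehicle. The later step from 2 h to 12 h had a log2FC of 0.52 ± 0.096 (adjusted p = 0.00751), and the difference between the 2 steps was not tested. The call in TGFβ2h was lost without vehicle replicate 2 (log2FC 0.59, adjusted p = 0.0688), and that from 2 h to 12 h without TGFβ12h replicate 1 (0.0575) or replicate 2 (0.0613).

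The α subunits of prolyl 4-hydroxylase carry the catalytic site and pair with P4hb. P4ha2 was called at 12 h and P4ha1 at neither time, and the difference between the changes of both genes was not tested. P4ha1 (Entrez 18451, forward strand, chr10:58786044-58836052) was at 62.7 and 64.1 CPM in vehicle, 60.8 and 66.7 CPM in TGFβ2h, and 59.4 and 69.6 CPM in TGFβ12h. Its groups overlapped in every comparison. The log2FC of P4ha1 was 0.0084 in TGFβ2h (95% interval -0.27 to 0.29, adjusted p = 0.971) and 0.024 in TGFβ12h (-0.26 to 0.30, adjusted p = 0.887), so that at 12 h folds below 0.838 or above 1.23 lay outside the interval. P4ha2 (Entrez 18452, forward strand, chr11:53913597-53945167) was at 28.9 and 35.3 CPM in vehicle, 33.2 and 42.9 CPM in TGFβ2h and 48.3 and 53.8 CPM in TGFβ12h. TGFβ2h overlapped vehicle, whereas both TGFβ12h libraries were above the libraries of the other groups. P4ha2 was 1.59-fold higher in TGFβ12h than in vehicle (log2FC 0.67 ± 0.17, SE, adjusted p = 0.0181), and its differences in TGFβ2h (log2FC 0.25 ± 0.17, adjusted p = 0.377) and from 2 h to 12 h (0.42, adjusted p = 0.0957) did not pass the test. The 12 h call of P4ha2 was lost without vehicle replicate 1 (adjusted p = 0.104), TGFβ12h replicate 1 (0.0638) or TGFβ12h replicate 2 (0.115), and the change from 2 h to 12 h was called without TGFβ2h replicate 2 (0.0302).

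**Figure D2:**
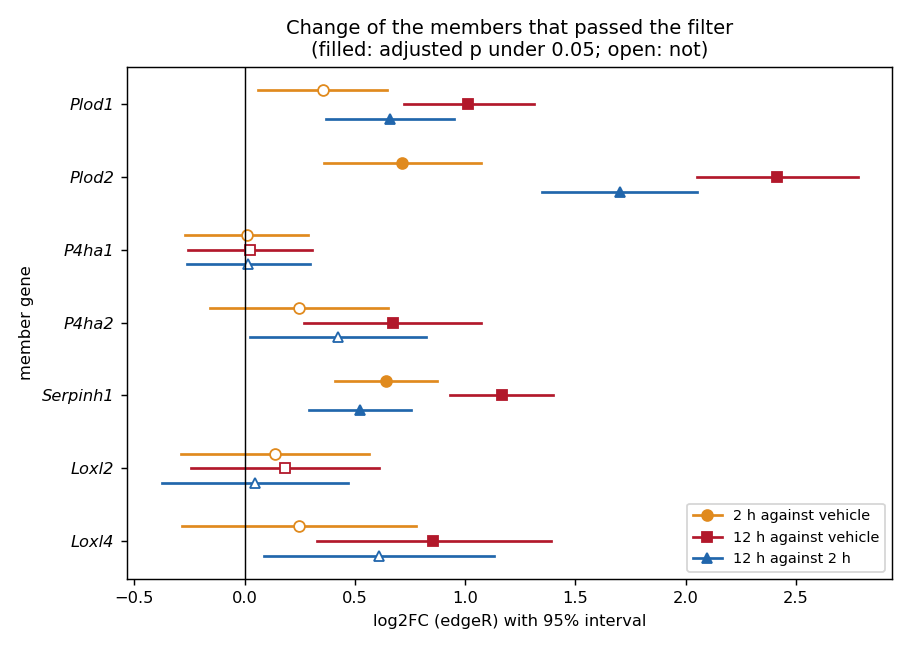
log2FC (x axis) of the 7 tested genes (y axis) for TGFβ2h against vehicle (orange circles), TGFβ12h against vehicle (red squares) and TGFβ12h against TGFβ2h (blue triangles), with 95% intervals as lines and filled symbols where the adjusted p was under 0.05. Plod2 at 12 h stands furthest to the right at 2.41, and the intervals of P4ha1 and Loxl2 include 0 in all 3 comparisons.

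Promoter sequences of 5 of the 10 genes (Loxl4, Plod1, P4ha1, P4ha2 and Serpinh1) were found in the RefSeq promoter table of build GRCm38.p6. The 250 bases before the start site, on the strand of the gene, are shown for Serpinh1, which rose at both times, and for P4ha1 and P4ha2, the related pair of which P4ha2 alone was called, at 12 h. They span chr7:99353240-99353489 (reverse strand), chr10:59323046-59323295 and chr11:54100674-54100923 (both forward strand), 5′ to 3′. Capitals mark CAGAC, the core of SMAD-binding elements, and ACGTG, the core of hypoxia response elements, on either strand (GTCTG and CACGT are their reverse complements).
Serpinh1: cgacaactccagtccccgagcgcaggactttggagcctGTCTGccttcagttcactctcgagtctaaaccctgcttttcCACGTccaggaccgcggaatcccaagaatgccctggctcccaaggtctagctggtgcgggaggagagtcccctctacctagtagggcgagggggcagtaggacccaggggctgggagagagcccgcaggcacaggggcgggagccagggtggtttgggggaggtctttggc
P4ha1: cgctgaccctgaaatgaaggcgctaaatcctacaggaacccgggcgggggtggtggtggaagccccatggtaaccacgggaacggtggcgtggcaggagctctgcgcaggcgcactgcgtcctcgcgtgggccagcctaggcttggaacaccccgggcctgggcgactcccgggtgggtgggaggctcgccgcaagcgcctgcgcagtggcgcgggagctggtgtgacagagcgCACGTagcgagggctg
P4ha2: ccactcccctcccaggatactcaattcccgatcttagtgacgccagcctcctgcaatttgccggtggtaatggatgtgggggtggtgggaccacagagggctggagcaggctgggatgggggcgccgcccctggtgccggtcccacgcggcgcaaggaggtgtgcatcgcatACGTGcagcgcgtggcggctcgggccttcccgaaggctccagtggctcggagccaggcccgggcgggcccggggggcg

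In the Serpinh1 promoter CAGAC began at position -212 and ACGTG at -171 relative to the start site, both on the opposite strand. P4ha1 and P4ha2 each held 1 ACGTG, at -16 and -78, and no CAGAC, so these letters did not separate the gene that was called from its relative that was not. Of the promoters not shown, Loxl4 held CAGAC at -226 and Plod1 at -74. CAGAC was found in 42.2% of the 32851 promoters of the table over the same 250 bases, ACGTG in 16.6% and TGANTCA, the binding motif of AP-1 with N for any base, in 6.75%. None of the 5 promoters held TGANTCA. The motifs did not overlap each other, and a match is a run of letters and no evidence of binding.

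Among the lysyl oxidases, Loxl2 and Loxl4 made up nearly all of the expression. Of these 2, the only lysyl oxidases that passed the filter, Loxl4 alone was called. Loxl4 (Entrez 67573, reverse strand, chr19:42668472-42687303) was at 27.6 and 34 CPM in vehicle, 31.2 and 41.8 CPM in TGFβ2h, and 46.4 and 65.1 CPM in TGFβ12h. Both TGFβ12h libraries were above all others, and replicate 2 had the higher value in each group. Loxl4 was 1.81-fold higher in TGFβ12h than in vehicle (log2FC 0.86 ± 0.22, SE, 95% interval 0.33 to 1.39, adjusted p = 0.0202). Its differences in TGFβ2h (log2FC 0.25 ± 0.22, adjusted p = 0.507) and from 2 h to 12 h (0.61 ± 0.22, adjusted p = 0.0727) did not pass the test. The 12 h call was lost without vehicle replicate 1 (adjusted p = 0.107) or TGFβ12h replicate 2 (log2FC 0.58, adjusted p = 0.133), and the change from 2 h to 12 h was called without TGFβ2h replicate 2 (0.0316) and by DESeq2 (0.0381).

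Loxl2, whose product is best known for cross-linking basement membrane collagen IV, was at 38.9 and 28.8 CPM in vehicle, 41 and 33.5 CPM in TGFβ2h, and 39.9 and 37 CPM in TGFβ12h (Entrez 94352, forward strand, chr14:70008978-70095640). The groups overlapped in every comparison and replicate 1 was higher than replicate 2 in each. Its log2FC was 0.14 ± 0.18 in TGFβ2h (95% interval -0.29 to 0.56, adjusted p = 0.658) and 0.18 ± 0.18 in TGFβ12h (-0.24 to 0.61, adjusted p = 0.443). The upper ends of both intervals lay below the log2FC of Plod2, Plod1 and Serpinh1 at 12 h.

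Lox, the founding member of the family, had counts in the treated libraries and none in vehicle. It had 0 and 0 counts in vehicle, 9 and 5 in TGFβ2h, and 20 and 23 in TGFβ12h, or a mean of 0.354 ± 0.144 CPM (SD, n = 2) at 2 h and 1.03 ± 0.219 CPM at 12 h. Both vehicle libraries were below all treated libraries, and both TGFβ12h libraries above both TGFβ2h libraries. A count of 0 allows up to 3 counts per library, which is a floor of 0.184 CPM in vehicle. The mean level of Lox was 1.92-fold that floor in TGFβ2h and 5.58-fold in TGFβ12h. When all 16115 genes without a filter on low counts were tested, Lox was called in TGFβ2h (adjusted p = 0.0398) and TGFβ12h (adjusted p = 0.0021) and not from 2 h to 12 h (0.0914). The floor covers the counting error of vehicle only and not that of the treated counts, so these folds are not lower bounds.

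Loxl1 had 0 and 0 counts in vehicle, 2 and 1 in TGFβ2h and 1 and 1 in TGFβ12h, all at or under the floor of 3 counts, so that no difference was detectable at this depth. Loxl3 had 13 and 11 counts in vehicle, 16 and 12 in TGFβ2h and 10 and 15 in TGFβ12h. Its groups overlapped throughout (means of 0.733 ± 0.0455, 0.707 ± 0.144 and 0.603 ± 0.236 CPM, SD, n = 2), and without a filter its log2FC was -0.050 (adjusted p = 0.988) at 2 h and -0.30 (adjusted p = 0.7) at 12 h. Loxl3 overlaps Htra2 on the opposite strand, which stranded counting keeps apart.

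Levels of different genes were compared as RPKM, the CPM per kilobase of exon, with exon lengths from GENCODE. In vehicle Serpinh1 was highest (69.3 ± 3.74 RPKM, SD, n = 2), followed by P4ha1 (15.4 ± 0.242) and Plod2 (12 ± 0.0192). Plod1 (7.35), Loxl4 (7.31) and Loxl2 (6.33) came next and P4ha2 (5.14) after them, and these neighbors in the order overlapped between libraries, as the 2 values of Loxl2 were 7.27 and 5.38 and those of P4ha2 4.63 and 5.65. Loxl3 was at 0.175 RPKM, and Lox and Loxl1 had no counts. In TGFβ2h the order began with Serpinh1 (108 ± 2.98), Plod2 (19.8 ± 3.66), P4ha1 (15.5 ± 1.02), Plod1 (9.39), Loxl4 (8.66), Loxl2 (6.96) and P4ha2 (6.1), where Plod1, Loxl4 and Loxl2 each overlapped the next in order, and ended with Loxl3 (0.168), Lox (0.0753) and Loxl1 (0.0227). In TGFβ12h Serpinh1 (156 ± 1.49) and Plod2 (64.2 ± 5.17) stood apart from the rest. P4ha1 (15.7 ± 1.74), Plod1 (14.8 ± 0.534) and Loxl4 (13.2 ± 3.14) overlapped one another, and P4ha2 (8.18 ± 0.628) was above Loxl2 (7.19 ± 0.381). Lox (0.218 ± 0.0466) and Loxl3 (0.144 ± 0.0563), both below the filter, could not be ordered, as their nearest libraries were at 0.185 and 0.183 RPKM. Plod2 thus moved from below P4ha1 in both vehicle libraries to above it in all treated libraries.

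The balance within each pair of relatives was read from ratios of counts per exon base inside single libraries. The ratio of Plod2 to Plod1 was 1.64 and 1.64 in vehicle, 2.64 and 1.66 in TGFβ2h, and 4.69 and 3.98 in TGFβ12h. The ratio of P4ha2 to P4ha1 was 0.304 and 0.363 in vehicle, 0.36 and 0.424 in TGFβ2h, and 0.536 and 0.51 in TGFβ12h. Both ratios were higher in TGFβ12h than in every other library, with an overlap between vehicle and TGFβ2h for P4ha2 to P4ha1. The ratio of Loxl4 to Loxl2 was 0.9 and 1.5 in vehicle, 0.966 and 1.58 in TGFβ2h and 1.47 and 2.23 in TGFβ12h, so its groups overlapped. In every group it was higher in replicate 2. Plod2 also rose relative to Serpinh1, from 0.168 and 0.18 in vehicle to 0.439 and 0.386 in TGFβ12h, with 0.21 and 0.156 in TGFβ2h. An exact permutation test of 2 libraries against 2 cannot give a two-sided p below 0.333, and no test of these ratios was made.

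**Figure D3:**
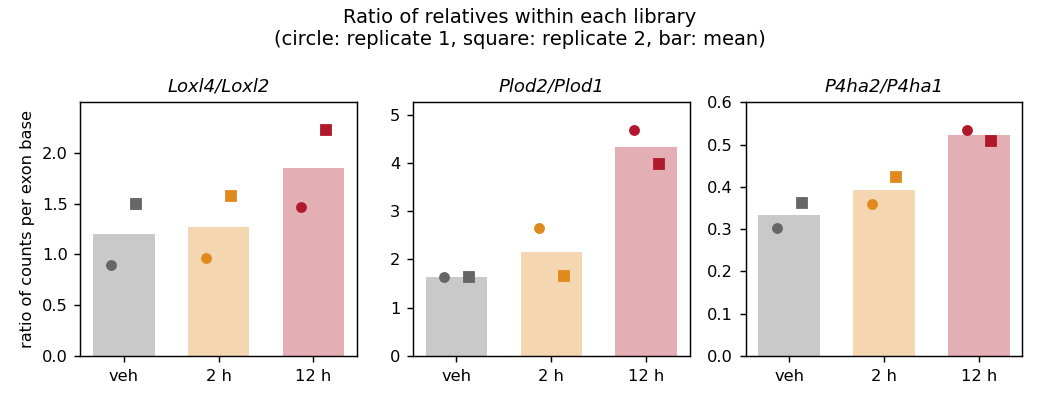
Ratio of counts per exon base within each library (y axis, linear, starting at 0) for Loxl4 to Loxl2, Plod2 to Plod1 and P4ha2 to P4ha1 in vehicle, TGFβ2h and TGFβ12h (x axis), where circles are replicate 1, squares replicate 2 and bars the mean. Plod2 to Plod1 reaches 4.69 and 3.98 in TGFβ12h, and for Loxl4 to Loxl2 the spread between replicates is as wide as the difference between groups.

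As shares of the length-corrected sum of the 5 lysyl oxidases, Loxl2 and Loxl4 had means of 45.7% and 53% in vehicle, 44% and 54.3% in TGFβ2h, and 35% and 63.2% in TGFβ12h. Lox had 0%, 0.479% and 1.04%, and Loxl3 1.26%, 1.07% and 0.678%. The share of Loxl4 was higher in replicate 2 in each group and overlapped between TGFβ12h (58.6% and 67.7%) and vehicle (46.7% and 59.2%). Summed over all 10 genes, the level was 434 and 425 CPM in vehicle, 577 and 596 CPM in TGFβ2h and 953 and 965 CPM in TGFβ12h.

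Other genes of collagen biosynthesis were read from a list of 28 (other hydroxylases and their partners, sugar transferases, folding and export factors, and propeptide processing enzymes), of which 19 passed the filter. In TGFβ2h 3 were called higher and 1 lower, in TGFβ12h 7 higher and 2 lower, and from 2 h to 12 h 3 higher and 2 lower. The shares of all tested genes called higher and lower were 9.91% and 5.25%, 21.8% and 21.5%, and 15.2% and 18.9%, so that from 2 h to 12 h the 3 of 19 called higher were near the share of all tested genes. The median log2FC of the 19 was 0.11, 0.12 and 0.19 in these comparisons. Strong changes were those of propeptide processing genes. Bmp1, the procollagen C-proteinase that also cleaves the propeptide of pro-LOX, was at a mean of 84 CPM in vehicle, 166 CPM in TGFβ2h and 460 CPM in TGFβ12h (log2FC 0.98, adjusted p = 0.00324, and 2.45, adjusted p = 4.9e-05). Its enhancer genes went opposite ways, as Pcolce2 rose from 11 to 32.6 and 60.1 CPM (log2FC 1.57, adjusted p = 0.00494, and 2.45, adjusted p = 0.000279) and Pcolce fell from 93.6 to 23.7 CPM in TGFβ12h (log2FC -1.98, adjusted p = 7.49e-05). P4hb, the β subunit that pairs with the prolyl 4-hydroxylase α subunits, was at 1770, 1900 and 1640 CPM and was not called at either time. P4ha3, an α subunit gene outside the set, was at 1.96, 2.6 and 1.56 CPM and was not called at either time. Plod3, a lysyl hydroxylase gene outside the set, was at 106, 113 and 174 CPM. It was called higher in TGFβ12h (log2FC 0.72, adjusted p = 0.00184) and not called in TGFβ2h (0.097, adjusted p = 0.573).

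Of 17 substrates and activators of lysyl oxidases, 9 passed the filter. In TGFβ2h 3 were called higher and 0 lower, in TGFβ12h 6 higher and 3 lower, and from 2 h to 12 h 5 higher and 2 lower, with a median log2FC of 0.35, 1.00 and 0.63. Col1a1 is among those called higher in each comparison, although it passed the filter only through the treated libraries (0.647 and 1.27 CPM in vehicle). In the same comparisons 9.91%, 21.8% and 15.2% of all tested genes were called higher and 5.25%, 21.5% and 18.9% lower. Fn1, which encodes fibronectin and binds LOX and BMP1, was at 89.6 CPM in vehicle and 1280 CPM in TGFβ12h (log2FC 3.84, adjusted p = 4.95e-05). Among fibrillar collagens Col5a1 rose from 6.21 to 58.5 CPM (log2FC 3.24, adjusted p = 0.00234) and Col1a1 from 0.96 to 10.9 CPM (log2FC 3.51, adjusted p = 0.000436) in TGFβ12h. The libraries of Col5a1 lay apart, at 3.76 and 8.66 CPM in vehicle and 39.2 and 77.7 CPM in TGFβ12h. Its log2FC ranged from 2.65 to 3.95 with each library left out in turn. Col4a2 of basement membranes (log2FC 1.03, adjusted p = 0.00273) and Efemp2, whose product fibulin-4 brings LOX to elastic fibers (1.00, adjusted p = 0.000377), were higher in TGFβ12h too. The collagen VI chain genes Col6a1 (log2FC -2.14, adjusted p = 0.000492) and Col6a2 (-3.07, adjusted p = 0.000187) fell. Eln, the gene of elastin, and Postn had a mean of at most 0.0257 CPM in any group. Col1a2, the partner chain of Col1a1, was below the filter with a mean of 0.324, 0.581 and 0.686 CPM.

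**Figure D4:**
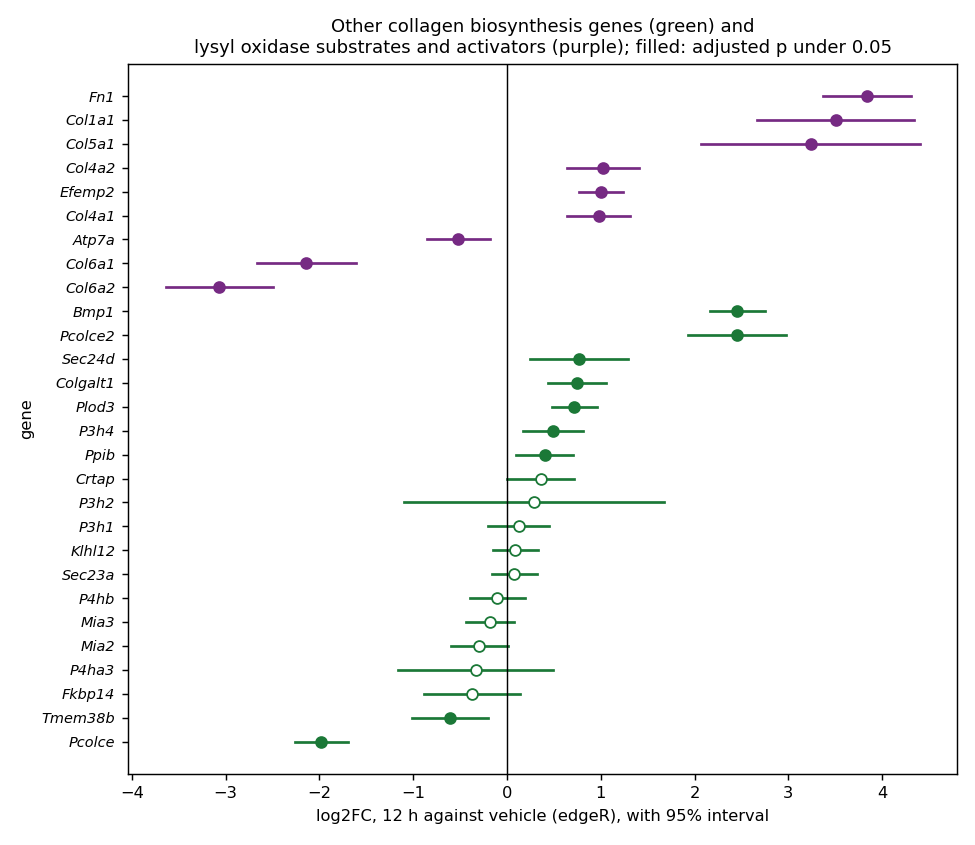
log2FC in TGFβ12h against vehicle (x axis) with 95% intervals for the 19 tested genes of collagen biosynthesis (green) and the 9 tested substrates and activators of lysyl oxidases (purple), one gene per line (y axis), with filled points where the adjusted p was under 0.05. Fn1 at 3.84 and Col6a2 at -3.07 mark the ends of the range, and P4hb lies near 0.

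The genes next to the 10 on the chromosome were read from their order in GENCODE on NCBIM37. Of all tested genes, 9.91% were called higher and 5.25% lower in TGFβ2h, and 21.8% and 21.5% in TGFβ12h. Whether neighbors were called more often than other genes was not tested. Both neighbors of Serpinh1 were called higher at 12 h, and Map6 also at 2 h. Map6, a microtubule-associated protein gene 8.24 kb away, had a log2FC of 1.49 (adjusted p = 0.0122) in TGFβ2h and 1.82 (adjusted p = 0.00188) in TGFβ12h, and Gdpd5, 28.3 kb away on the other side, of 1.24 (adjusted p = 0.00543) in TGFβ12h and was not called in TGFβ2h (0.32, adjusted p = 0.399). The 2 h call of Map6 was lost without vehicle replicate 1 (0.0782) or replicate 2 (0.0655), and the 12 h call of Gdpd5 without TGFβ12h replicate 1 (0.052). Beside Plod2, Plscr4, a phospholipid scramblase gene 48.7 kb away, fell (log2FC -0.77, adjusted p = 0.00459, in TGFβ2h and -1.68, adjusted p = 9.01e-05, in TGFβ12h). On the other side 1190002N15Rik, 1920 kb away, was not called in TGFβ12h (0.53, adjusted p = 0.0592). Next to Loxl4, Pyroxd2, 113 kb away, fell in TGFβ12h (log2FC -2.09, adjusted p = 0.000736). R3hcc1l, 1.64 kb from Loxl4 on the other side, was not called in TGFβ12h (0.20, adjusted p = 0.132). Htra2 beside Loxl3 and Stoml1 beside Loxl1 were tested and not called at either time. Next to Plod1, 2510039O18Rik rose (log2FC 0.53, adjusted p = 0.0219, and 0.68, adjusted p = 0.00295), with its 2 h call lost without either vehicle library (0.075 and 0.139) or either TGFβ12h library (0.0594 and 0.0595) and with only the 2 groups compared (0.0616). Srfbp1 beside Lox, Entpd4 and R3hcc1 beside Loxl2, Dok1 beside Loxl3 and Mfn2 beside Plod1 were called in TGFβ12h with a log2FC between -0.36 and 0.55, and each lost its call without TGFβ12h replicate 1, without TGFβ12h replicate 2 and without at least 1 of the vehicle libraries (largest adjusted p per gene 0.0922 to 0.225). No tested neighbor of P4ha1 was called, and both neighbors of P4ha2 were below the filter.

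**Figure D5:**
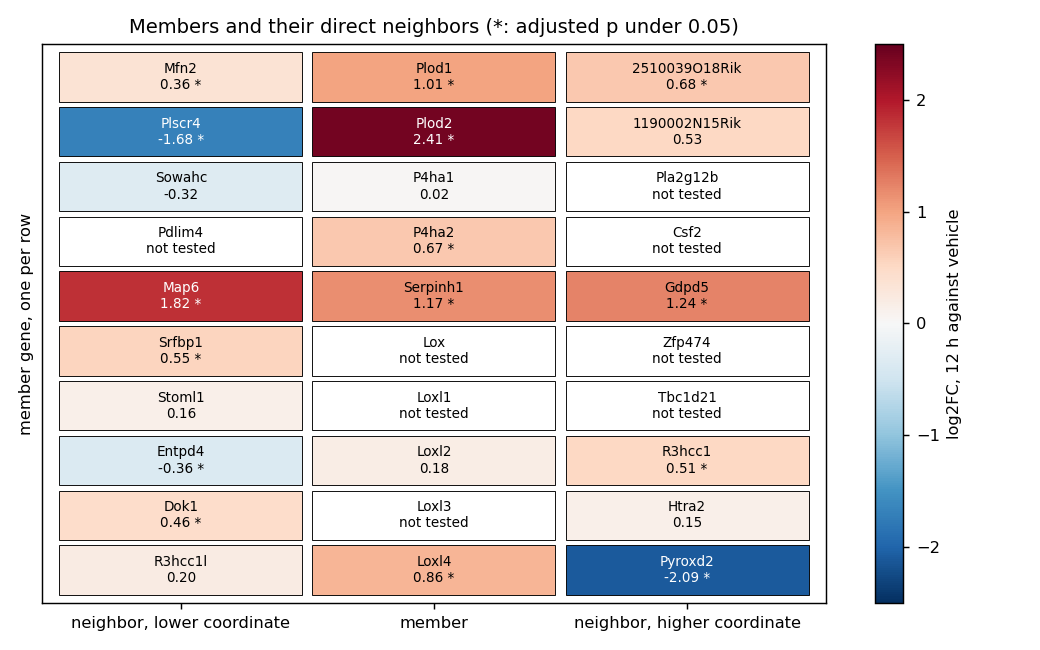
log2FC in TGFβ12h against vehicle (color and printed value) of each of the 10 genes (middle column) and its direct neighbors in gene order (left and right columns), one gene of the set per row, with an asterisk where the adjusted p was under 0.05 and white boxes for genes below the filter. Serpinh1 stands between 2 genes that rose (1.82 and 1.24), and Plod2 and Loxl4 each stand beside a gene that fell (-1.68 and -2.09).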

How the data were processed

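The authors filtered the 50-base reads, aligned them to mm9 with subjunc of Rsubread, removed duplicates with SAMtools 0.1.19 and counted unique reads per gene on stranded exons with featureCounts. The deposited values were raw counts of 21240 genes in 6 libraries, without normalization. The genes and gene lists were chosen with earlier results of these data known. Counts were analyzed with edgeR 4.0.16 in R 4.3.3 by the quasi-likelihood test (two-sided, TMM factors of 0.961 to 1.07, 1 fit of 3 groups) on the 11080 genes that reached 2 CPM in no fewer than 2 libraries, with Benjamini-Hochberg adjustment per contrast. The SE is the absolute log2FC over the square root of F. All 10 genes were named. Listed genes were named if strongly changed against vehicle (at most 8 per list), neighbors if called. P4hb, P4ha3, Plod3, Eln, Postn, Col1a2 and the named neighbors without a call were chosen after their values were seen. Gene positions and exon lengths came from GENCODE on NCBIM37, with 18790 of the counted genes matched by symbol, 1663 by synonym and 787 not matched and left out of the gene order. The authors counted on UCSC gene models, so RPKM values are approximate. Alternatives used limma 3.58.1 (voom) and DESeq2 1.42.0, other scaling, other filters, a replicate block, only the 2 groups compared, and each library left out in turn. Depth was 14705886 to 23786993 counts. Beyond 'biological replicate', the labels do not say how separate the cultures were, so p-values measure the spread between these libraries.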

Additional observations from a re-analysis of the deposited data

Results flagged for a closer look

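The difference from vehicle at 12 h was not the same as that at 2 h for 3 genes, by the test of the difference itself (TGFβ12h against TGFβ2h, edgeR's quasi-likelihood test, Benjamini-Hochberg over all tested genes). The log2 difference at 12 h minus that at 2 h was 1.70 for Plod2 (adjusted p = 0.000567), 0.66 for Plod1 (adjusted p = 0.00742) and 0.52 for Serpinh1 (adjusted p = 0.00751), with both TGFβ12h libraries above both TGFβ2h libraries in each case. Because vehicle was collected at 2 h only, both differences are relative to the same 2 vehicle libraries, and longer treatment and longer time without serum and insulin cannot be told apart.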

How the results depend on the processing

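Plod1, Plod2 and Serpinh1 at 12 h, and Plod2 from 2 h to 12 h, kept their direction and call in all 14 alternatives. Total counts without TMM factors moved the median log2FC of all tested genes to -0.12 at 2 h and -0.11 at 12 h, and changed no call among the 7 tested genes (Plod1 at 12 h fell to 0.89, below the limit of a strong change), but ended the 12 h calls of the neighbors Srfbp1 (adjusted p = 0.0719), Dok1 (0.064) and Mfn2 (0.176). That scaling also ended the calls of Col1a1 (0.0612) and Col4a2 (0.052) from 2 h to 12 h. Without a filter the 12 h call of Entpd4 was lost (0.0694). The direction of 2 genes that were never called turned. P4ha1 at 2 h was -0.0040 with DESeq2 size factors in edgeR and with DESeq2, -0.10 with total counts and -0.00024 with only the 2 groups compared, and with total counts it was -0.10 at 12 h and -0.0035 from 2 h to 12 h. With each library left out in turn P4ha1 ranged from -0.060 to 0.056 at 2 h, -0.11 to 0.12 at 12 h and -0.11 to 0.12 from 2 h to 12 h, and Loxl2 from -0.063 to 0.37, -0.016 to 0.42 and -0.091 to 0.20. The number of the 10 genes called at 2 h was 1 with only the 2 groups compared and 0 to 3 with a library left out. At 12 h it was 3 to 5 with a library left out. From 2 h to 12 h it was 5 with the replicate block and 1 to 5 with a library left out, and the number of called genes in the 2 lists together was 7 to 12 with a library left out. Without a filter on low counts Lox was called in addition at both times. The cause of these changes was not tested. The labels number the replicates but do not say that equal numbers share a culture or day. Across genes, deviations of equally numbered libraries from their group means correlated by 0.702 for vehicle with TGFβ2h, 0.273 for vehicle with TGFβ12h and 0.392 for the treated groups. With the replicate block, 3222, 6127 and 5373 genes were called in place of 1680, 4799 and 3775, Plod1 was called at 2 h (adjusted p = 0.0347), and Loxl4 (0.00129) and P4ha2 (0.00864) from 2 h to 12 h. With 2 libraries per group and few counts of Lox, Loxl1 and Loxl3, small differences of these genes were not detectable.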

Other observations

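Col1a2, Col3a1 and Col5a2, the fibrillar collagen genes of the substrate list that were below the filter, had more counts in replicate 1 than in replicate 2 in every group. Col1a2 had 11 and 0 counts in vehicle, 19 and 4 in TGFβ2h and 28 and 3 in TGFβ12h. Col3a1 had 10 and 1, 6 and 0, and 13 and 0 counts, and Col5a2 5 and 0, 19 and 1, and 20 and 2. Col5a1 and Col1a1, which passed the filter, did not divide in this way, with 64 and 136, 509 and 753, and 900 and 1515 counts of Col5a1 and 11 and 20, 94 and 135, and 252 and 211 counts of Col1a1. Nor did Lox, with 0 and 0, 9 and 5, and 20 and 23 counts in the same libraries. These genes were singled out after their values were seen, and what set the libraries of replicate 1 apart was not tested.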
